A study of Mus musculus with 8 samples.

Results

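Expanded potential stem cells (EPSC) are mouse embryonic stem cells (ESC) converted in a cocktail of signalling inhibitors, a state studied for its ability to contribute to embryonic and extraembryonic lineages. The comparison described here set EPSC against ESC within each of the 2 treatments of the study and kept the genes that moved the same way in both. It used 4 of the 8 RNA sequencing libraries, 1 per condition: untreated EPSC, EPSC given T09 (T0901317, a synthetic activator of the LXR nuclear receptors), untreated ESC, and ESC with T09. The other 4 libraries were blastoids, stem cell aggregates that model the blastocyst, and enter only as levels beside those of the stem cells.

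Every library derives from the E14 line. ESC were grown on gelatin in DMEM with 15% fetal bovine serum, and EPSC on gelatin in DMEM/F-12 with 20% knockout serum replacement for 5 passages. Both media held LIF, 3 µM CHIR99021 (a GSK3 inhibitor that stabilises beta-catenin) and 1 µM PD0325901 (a MEK inhibitor). The EPSC medium alone also held 4 µM JNK Inhibitor VIII, 10 µM SB203580 (a p38 inhibitor), 0.3 µM A-419259 (a Src family inhibitor) and 5 µM XAV939 (a tankyrase inhibitor that stabilises AXIN). The treated libraries had T09 for 3 days at a dose that the labels write as 1 uM/mL, from which the concentration cannot be read. Serum, basal medium, inhibitors and passages changed together, so their effects cannot be told apart. Each state is 1 culture line, and the labels name no separate cultures behind the 2 libraries of a state. The test has 1 residual degree of freedom, which is how far the EPSC to ESC ratio differs between the treatments. The rest of its error is borrowed across genes (median prior degrees of freedom 8.42). A p-value therefore does not measure the spread between cultures or between derivations of EPSC.

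As background, Wnt signalling stabilises beta-catenin, which joins TCF and LEF factors to switch on target genes, while AXIN and the tankyrases set how fast beta-catenin is degraded. CHIR99021 acts below AXIN on GSK3 and XAV939 acts on AXIN itself, so the EPSC medium pushes the pathway at both points. Naive ESC keep lineage and germ cell genes low, partly through DNA methylation and Polycomb complexes, and they hold the Hox clusters of body patterning genes largely silent.

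Total counts ranged from 33923249 in untreated ESC to 40781415 in treated EPSC. Pluripotency markers were high in all 4 libraries, with summed levels over 8 genes of 4964, 5743, 7060 and 7291 CPM (counts scaled to a common library size) in untreated EPSC, treated EPSC, untreated ESC and treated ESC; values below follow this order throughout. Of these 8 markers 4 were lower and none higher in EPSC. Fibroblast or feeder markers summed to between 13.2 and 33.6 CPM over 12 genes, and of 7 tested 3 were lower and 0 higher in EPSC. Col3a1 and Dcn had 0 counts in every library, whereas Pdgfrb had 156, 101, 477 and 684 and Fbn1 had 496, 267, 275 and 242. Primitive endoderm markers summed to 41.8, 26.4, 9.01 and 8.78 CPM over 8 genes, and 5 of the 7 tested were higher in EPSC. Trophectoderm markers summed to 85.2, 110, 85.1 and 83.7 CPM, of which Tfap2c alone made up 75.0, 103, 61.2 and 59.3, and of 4 tested 2 were higher (Tfap2c and Gata3) and 2 lower (Cdx2 and Eomes). Mesoderm markers summed to 1.28, 1.94, 6.92 and 7.48 CPM, with 3 of 5 tested lower and 0 higher, and neural markers to 39.1, 43.3, 15.1 and 17.1 CPM, with both tested higher and Dcx at 0 in every library. In bulk RNA, fewer cells of a type and less RNA per cell cannot be told apart.

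A gene was called when edgeR's quasi-likelihood test, with treatment as a block, gave a Benjamini-Hochberg adjusted p under 0.05 and both pairs had the same sign. Of 14477 genes tested, 4172 were called (28.8%). They divided into 2069 higher in EPSC (14.3%) and 2103 lower (14.5%), and these shares are the background for every count of members below. Changes were often modest: 1109 calls were under 1.5-fold, 1966 were at least 2-fold (964 higher and 1002 lower) and 861 at least 4-fold, with a median size of 0.93 on the log2 scale. By the pair ratios alone, 1560 of 13459 genes with enough counts were at least 2-fold apart in both pairs (11.6%), 755 higher (5.61%) and 805 lower (5.98%), and 1490 of the 1560 were also called. At the edge of the test, Pxmp4 and Eif4b lay just inside the threshold, with log2 changes of -0.57 and -0.33, and Tctn2 (0.46) and Gm5134 (-0.85) just outside it.

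**Figure D1:**
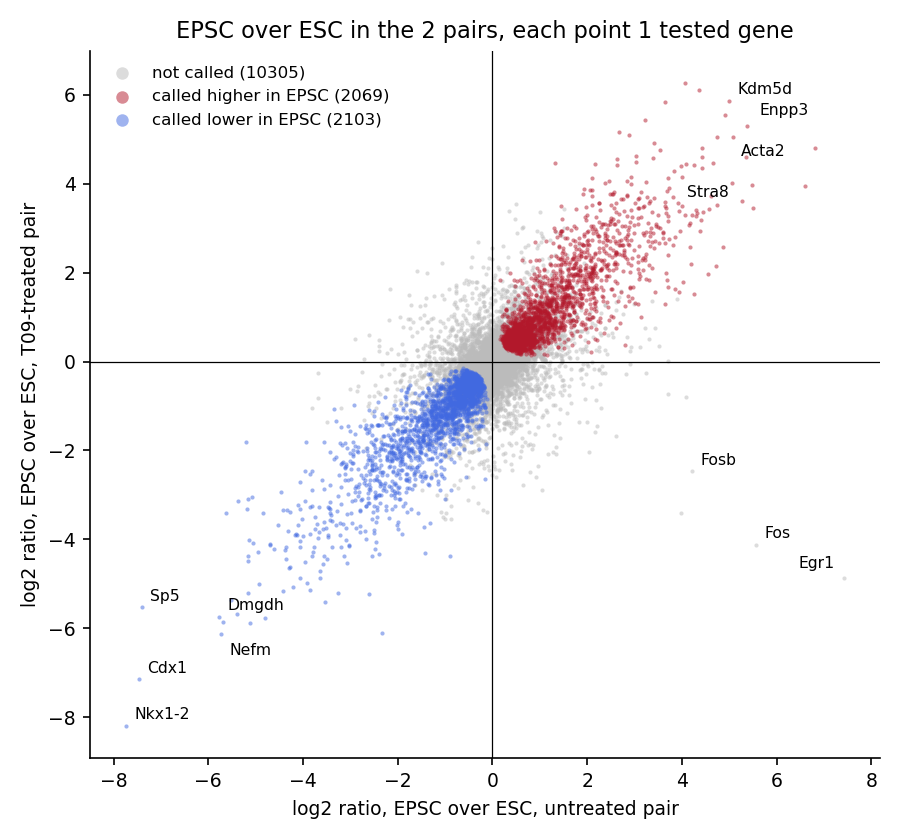
Log2 ratio of EPSC over ESC in the untreated pair (x axis) against the T09-treated pair (y axis), each point 1 of 14477 tested genes, coloured by whether the gene was called higher (2069) or lower (2103). Called genes lie along the diagonal, whereas Egr1, Fos and Fosb lie at the lower right with opposite signs in the 2 pairs.

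The difference between the states was not even along the genome. Genes of chromosome 6 were lower together in EPSC: 299 of 699 tested genes were called lower (42.8%) and 57 higher (8.15%), and 77.3% of all 699 lay below 0. Their median log2 change was -0.39, at -0.37 in the untreated pair and -0.40 in the treated pair. Chromosome 14 moved the other way, with 150 of 485 genes called higher (30.9%), 32 lower (6.60%) and a median of 0.21. The medians of the remaining autosomes and of X lay between -0.04 and 0.05. All of these positions are RefSeq's for GRCm38.p6, matched by symbol for 14458 of the tested genes and used only for the chromosome and the order of genes, since the counts were made on mm9.

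The shift ran along the whole of chromosome 6. In 10 blocks of 42 or 43 neighbouring genes, each with a mean of at least 10 CPM per gene, the median log2 change lay between -0.54 and -0.15, and all 10 were below 0. On chromosome 14 the first 4 blocks had medians of 0.01 to 0.09, and the last 3, from Zmym5 to Tmtc4, had 0.24, 0.47 and 0.44. The 193 blocks of other chromosomes lay between -0.30 and 0.18, the lowest running from Zranb3 to Nav1 on chromosome 1.

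Y chromosome genes were higher in EPSC, and all 8 tested were called, with a median log2 change of 1.37 (0.92 over the 4 with at least 10 CPM). Ddx3y, an RNA helicase gene, stood at 142, 136, 77.9 and 77.9 CPM, a log2 change of 0.84 (SE 0.103). The translation factor gene Eif2s3y stood at 118, 135, 58.0 and 66.9 CPM (1.02, SE 0.104). Kdm5d, which encodes a histone H3K4 demethylase, differed far more, with 513, 590, 12 and 7 counts and a log2 change of 5.64 (SE 0.316). Neither ESC library overlapped an EPSC library at these 3 genes. Here and below, remarks that libraries of the states lie apart describe genes already called and are no further support. Xist, the RNA that coats an inactive X, was at 1.49, 0.947, 1.34 and 0.720 CPM and was not called.

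**Figure D2:**
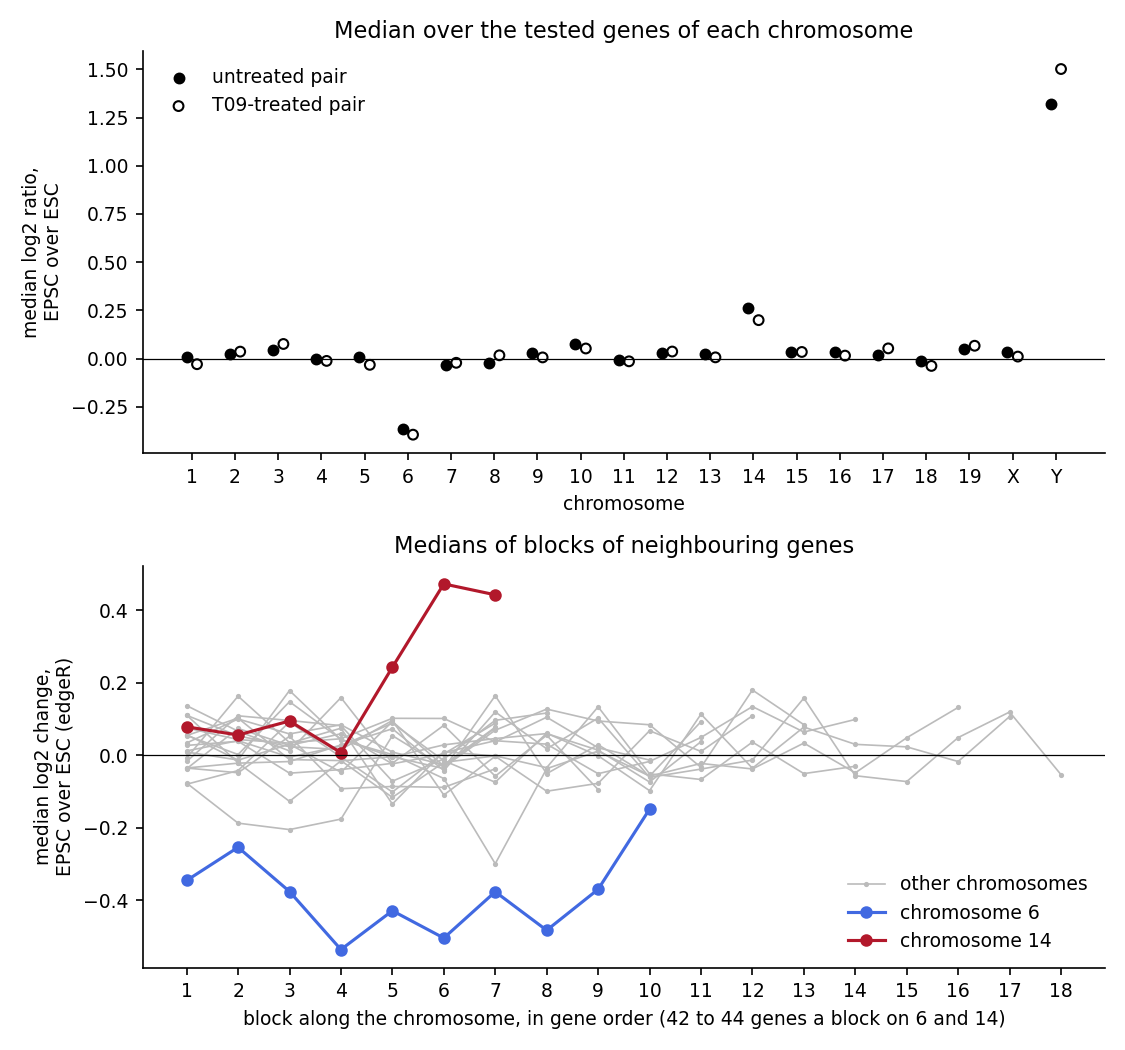
Upper panel: median log2 ratio of EPSC over ESC for the tested genes of each chromosome, in the untreated pair (filled) and the T09-treated pair (open). Lower panel: median log2 change of successive blocks of neighbouring genes, with chromosome 6 (10 blocks, all below 0), chromosome 14 (7 blocks, the last 3 at 0.24 to 0.47) and all other chromosomes in grey.

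The same chromosomes stood apart in every blastoid library, all of which were grown from EPSC. Relative to the mean of both ESC libraries, the chromosome 6 median was -0.39 in untreated EPSC, -0.40 in treated EPSC, -0.41 in Type III and -0.50 in Type I day 5 blastoids, -0.38 in day 2 blastoids with an siRNA against Nr1h2 and -0.40 in those with a non-targeting siRNA. The chromosome 14 median was 0.22, 0.17, 0.38, 0.35, 0.23 and 0.19 in the same libraries. Other autosomes lay between -0.13 and 0.17 in all of them. DNA copy number was not measured, and its part in these shifts was not tested. Without the genes of chromosomes 6, 14 and Y, a check added after the data were seen, 3626 of 13285 genes were called (27.3%), 1854 higher and 1772 lower. Below, a call on chromosome 6 or 14 is named as such where it bears on a group.

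**Figure D3:**
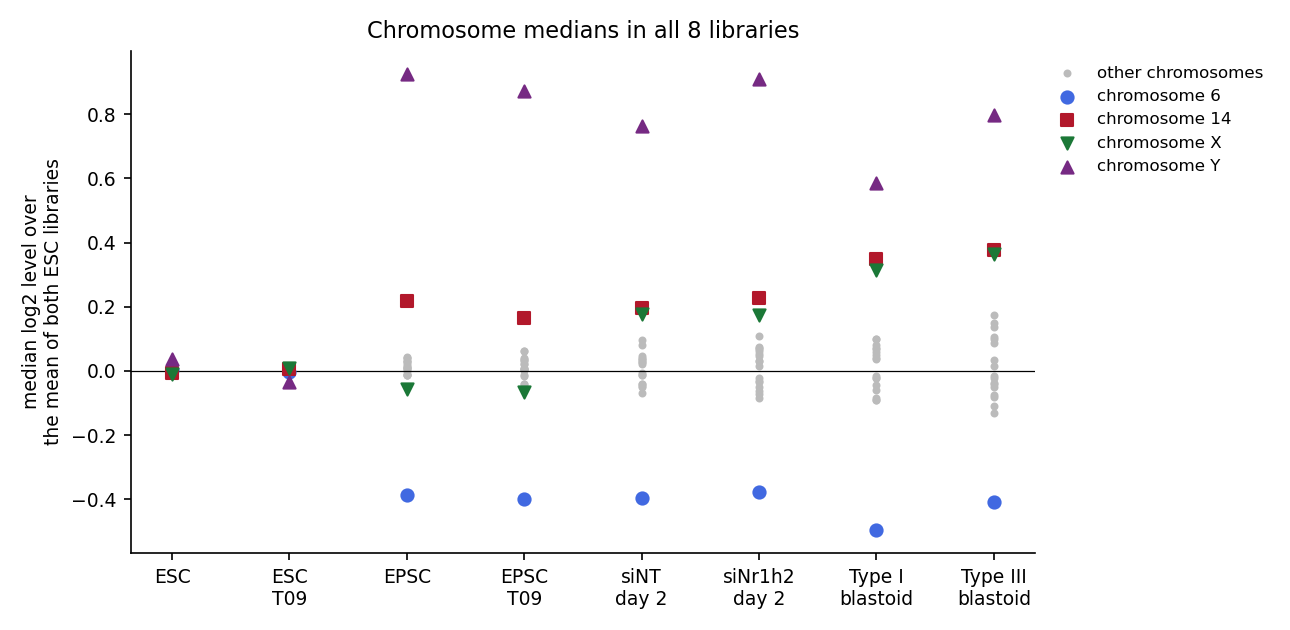
Median log2 level of each chromosome's genes in all 8 libraries, relative to the mean of the 2 ESC libraries, with chromosomes 6, 14, X and Y marked and the others in grey. Chromosome 6 lies between -0.50 and -0.38 in all 6 libraries derived from EPSC, and X lies at 0.18 to 0.36 in the 4 blastoid libraries against -0.06 and -0.07 in EPSC.

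The genes furthest apart were near absence in 1 state. Furthest up by the smaller of its pair ratios, after leaving out unnamed gene models, was Enpp3, which encodes an ectonucleotidase, with 1592, 2166, 31 and 46 counts and a log2 change of 5.41 (SE 0.175; edgeR quasi-likelihood test, Benjamini-Hochberg adjusted p = 3.18e-07). Rgs20, a regulator of G protein signalling, had 63 and 98 counts in the EPSC libraries and 0 in both ESC libraries, and against a floor of 3 counts per library was at least 28.6-fold higher with T09, though DESeq2 did not call it. The dystrophin complex gene Sgcd had 240, 90, 0 and 1 counts, and the serine protease inhibitor gene Serpina3k had 55, 107, 0 and 1. Both EPSC libraries exceeded both ESC libraries at each of these genes, which the choice by pair ratios largely fixed. Fgf1, a growth factor gene, had 195, 217, 6 and 6 counts (4.87), and Lrtm2, on chromosome 6, had 420, 315, 15 and 8 (4.80). Acta2, Kdm5d, Pramel3, Ptprtos, Scml2 and Sox7 complete the 12 genes furthest up. Ptprtos is antisense to Ptprt, and with the strand setting unknown the reads of such partners cannot be told apart.

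Lowest in EPSC was Nkx1-2, a homeobox gene of the tail bud, with 0 counts in both EPSC libraries against 391 and 545 in ESC, at least 152-fold lower without T09 and at least 207-fold lower with it. Tmem173, which encodes STING, the adaptor of cytosolic DNA sensing, fell from 291 and 454 counts in ESC to 6 and 8 (-5.90, SE 0.318). Tlx2, a homeobox gene on chromosome 6, had 27, 23, 875 and 1289 counts (-5.61). The slow skeletal troponin gene Tnni1 had 0 counts in both EPSC libraries and 64 and 67 in ESC. Cnga4, a subunit gene of a cyclic nucleotide gated channel, had 2, 0, 182 and 107 counts, at least 40.7-fold lower with T09. The phospholipase gene Pla2g4e (-4.95) and Rasgrp1, an activator of RAS (-4.85), also fell, and Cdx1, Dmgdh, Nefm, Sp5 and Bhmt2 complete the 12.

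Some genes that lie side by side fell or rose together. Of 14219 tested genes placed in order, 563 were called and at least 4-fold apart in both pairs. Of these, 141 lay in 61 runs of 2 or more neighbours, and most lay in none. Only 11 runs held 3 or more, and the others were pairs. How many runs would arise without any link between neighbours was not tested. The longest was 6 Hox genes on chromosome 2. Further runs were 5 Zscan4 genes on chromosome 7, 5 genes from Akr1c18 to Akr1e1 on chromosome 13, Bhmt with Bhmt2 and Dmgdh on chromosome 13, and Nefl with Nefm on chromosome 14. Members of the Zscan4, Akr1c and Serpina3 families are near-identical in places, so values of single members are uncertain.

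Hox genes, which encode the homeodomain factors that pattern the body axis, were low in ESC and lower still in EPSC. The family was singled out after its values were seen. The files list 39 Hox genes, of which 30 were tested, 21 were called lower and 0 higher, against 14.5% lower among all genes, and 19 were at least 2-fold lower in both pairs. Summed over the family, the counts were 1389, 1229, 3566 and 3671. Their median log2 change was -2.34.

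The clusters were not alike. All 7 tested genes of cluster D were lower, and the cluster summed to 74 and 98 counts in EPSC against 622 and 617 in ESC. In cluster C 8 of 9 were lower, and Hoxc8 was not called. Cluster A, on chromosome 6, had 4 of 10 called, and cluster B 2 of 4. Hoxd9 had 13, 9, 216 and 174 counts, a log2 change of -4.34. Hoxc10 had 9, 8, 137 and 128 counts (-4.14), and Hoxc6, which DESeq2 did not call, had 0 in both EPSC libraries against 24 and 37. Within cluster A the called genes included Hoxa7, Hoxa9 and Hoxa10: Hoxa9 had 1, 5, 94 and 99 counts (-5.18), whereas Hoxa4 had 39, 22, 23 and 16 and Hoxa5 had 63, 53, 56 and 84, and neither was called. At each gene named as called here, the lower ESC library exceeded the higher EPSC library.

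**Figure D4:**
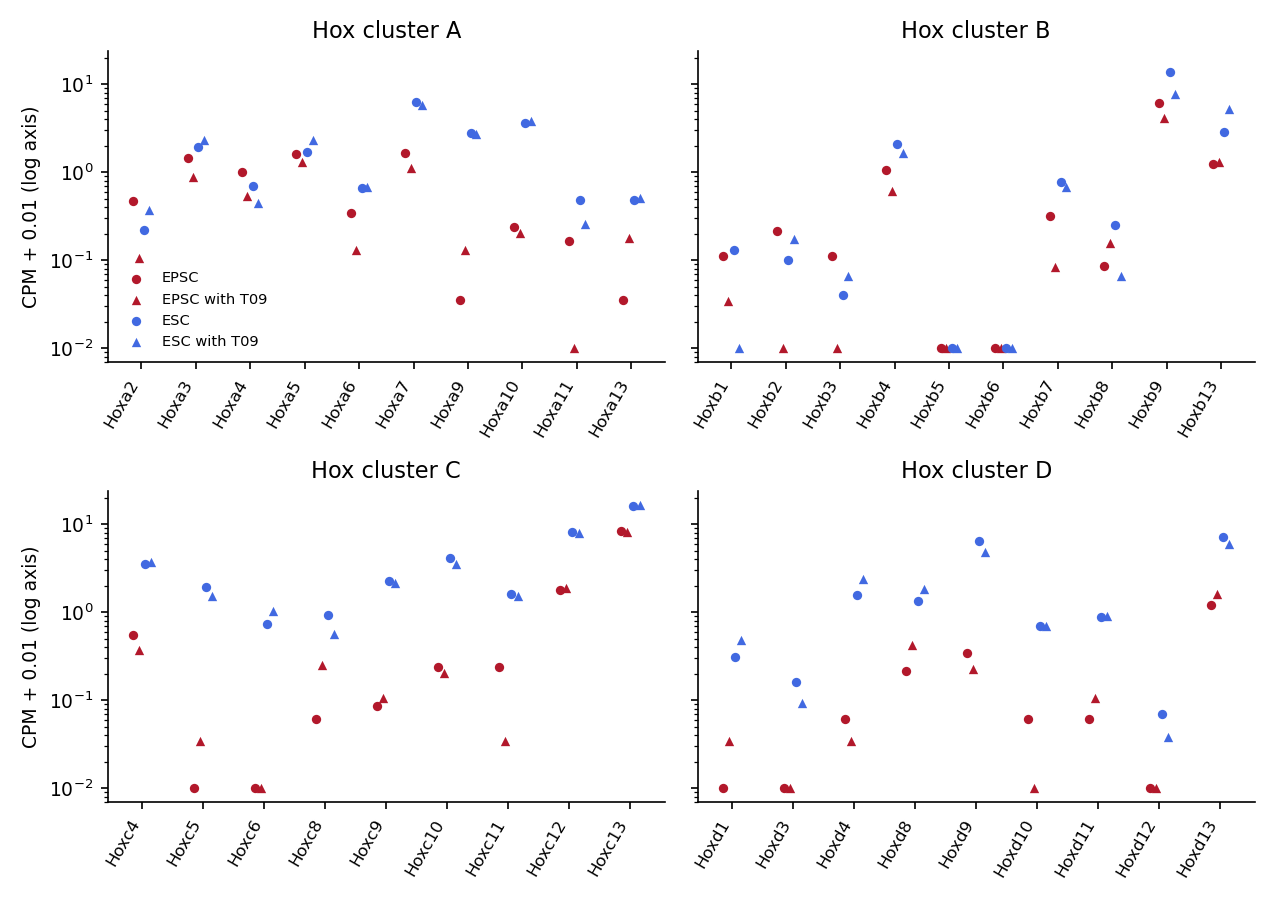
Level of Hox genes in CPM plus 0.01 on a log axis, by cluster, with EPSC libraries in red and ESC libraries in blue (circles untreated, triangles with T09). In cluster D the 7 tested genes are lower in both EPSC libraries, and in cluster B 2 of 4 tested genes were called lower.

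Wnt target genes fell in EPSC, with 13 of 21 tested members called lower and 0 higher, and a median log2 change of -1.55 beside 0.004 over all genes. Axin2, the feedback inhibitor, stood at 3.77, 4.39, 41.9 and 43.6 CPM. Apcdd1, a membrane inhibitor of the pathway, stood at 8.20, 7.28, 34.9 and 24.8 CPM (-1.92), and Rnf43, a ligase that removes Wnt receptors, at 0.205, 0.121, 1.37 and 1.33 (-3.04). The EPSC and ESC libraries did not overlap at any of these 3. Sp5, a repressor that is itself a direct target, had 0, 3, 312 and 206 counts. The members were not uniform, since Notum (0.07), Nkd2 (0.10), Ccnd1 (0.23), Myc (-0.21) and Lef1 (0.92) were not called.

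The promoter of Sp5 holds a TCF and LEF motif, and the stretch around it is shown because Sp5 was among the targets furthest down. It lies at chr2:70474779-70474865 on the plus strand of RefSeq's GRCm38.p6, and capitals mark CTTTGAT.

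Sp5: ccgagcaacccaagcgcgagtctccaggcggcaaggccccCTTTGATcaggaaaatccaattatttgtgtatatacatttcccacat

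CTTTGAT or CTTTGTT, on either strand of the 300 bases from 250 before to 50 after a start, was in 2 of 15 Wnt target promoters (13.3%) and in 6.25% of the promoters of all tested genes. Among Wnt targets called lower 1 of 10 promoters held it (10%), against 6.85% of all genes called lower. It was not limited to Wnt targets, since 4 of 12 Hippo and YAP promoters held it (33.3%). A match is a description of the letters and not a bound site.

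Above the targets, receptors and the parts that control beta-catenin moved both ways, with 5 of 29 higher and 7 lower. Among Frizzled receptors, Fzd10 fell from 74.5 and 67.4 CPM in ESC to 23.5 and 23.6 (-1.59), and Fzd8 (-1.44) and Fzd5 (-0.49) fell too. Fzd7 rose, at 82.5, 90.9, 24.6 and 36.5 CPM (1.53), and the other riser among the receptors, Fzd3 on chromosome 14 (0.63), was called in no fit with a library left out. The co-receptors Lrp5 (-0.53) and Lrp6 (-0.59, on chromosome 6) fell. Of the tankyrase genes, whose products XAV939 inhibits, Tnks fell (-0.64) while Tnks2 was at -0.02 and was not called. Tnks was at -0.19 without treated EPSC and not called there or without either ESC library, and at -1.08 without untreated EPSC. Lrp5 was not called without either treated library, Lrp6 without treated ESC, and Fzd5 without untreated ESC. Of the DNA-binding partners, Tcf7 fell (-1.16) and Tcf7l2 rose (1.28), and Tcf7l1 (0.30, edgeR quasi-likelihood Benjamini-Hochberg adjusted p = 0.0557) was not called. Beta-catenin itself (Ctnnb1, 0.28), Gsk3b (-0.33) and Axin1 (-0.19) were not called. The counts of this group are less stable than those of the targets: 3, 2 and 3 were higher without untreated EPSC, untreated ESC or treated ESC, 4, 4 and 3 were lower without treated EPSC, untreated ESC or treated ESC, and with library totals 9 were higher.

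Germ cell genes rose in EPSC in 3 groups. Of 20 tested genes of germ cell RNA control and the piRNA pathway, which silences transposons, 12 were higher and 1 lower, with a median log2 change of 0.99. Of 20 tested X-linked germ cell genes 15 were higher and 0 lower (median 1.63), and of 23 meiosis genes 9 were higher and 1 lower (median 0.47). Without treated EPSC, or without treated ESC, the meiosis count was 5 higher.

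Among piRNA genes, Piwil2, which encodes a PIWI protein that holds piRNAs, stood at 29.0, 30.0, 4.86 and 3.46 CPM (2.84, SE 0.190; chromosome 14), and Piwil4, a nuclear PIWI, at 8.81, 7.31, 0.835 and 0.554 (3.55). Mov10l1, the helicase of piRNA production, stood at 24.4, 24.2, 7.63 and 6.09 CPM (1.84), and Asz1, a mitochondrial scaffold of the pathway on chromosome 6, at 7.38, 7.82, 0.656 and 0.277 (4.06). Every EPSC library exceeded every ESC library at these genes. The RNA helicase gene Ddx4, the classic germ cell marker, changed less, at 14.5, 16.3, 7.78 and 7.95 CPM (0.97). Tdrd1 (2.41), Mael (2.91), Slc25a31 (3.54), Tdrkh (1.34), Dnd1 (1.02), Ddx25 (0.67) and Dazl (2.70) rose too. Of these Tdrd1 rested on single libraries, at 1.13 without treated ESC, 1.53 without untreated EPSC, 2.48 without treated EPSC, none of them called, and 5.33 without untreated ESC. Ddx25 was called in no fit with a library left out, and Tdrkh only without treated ESC. Piwil1 (-0.13), Tdrd9 (0.53), Tdrd5 (0.41) and Nanos3 (-0.71) were not called, and Rpl10l, a testis ribosomal protein gene, fell (-1.11). Rpl10l has no introns and resembles Rpl10, so its counts are uncertain.

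Meiosis genes were led by Sycp2, an axis protein of the synaptonemal complex, at 2.13, 2.91, 0.119 and 0 CPM, and by Stra8, the gene that starts meiosis, at 138, 107, 9.04 and 8.95 (3.76, chromosome 6). Sycp1, a further gene of the complex, stood at 4.05, 3.59, 0.865 and 0.748 CPM (2.24) and Dmc1, the meiotic recombinase, at 6.64, 6.94, 1.82 and 2.71 (1.60). Groups did not overlap at these genes. Sycp3 (0.45), Rec8 (-0.38), Stag3 (-0.06), Msh4 (0.45) and Prdm9 (-0.34), which also serve meiosis, were not called, and Tex15, needed for recombination, fell (-1.44).

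On the X, Scml2, a Polycomb protein of the germline, stood at 36.9, 33.8, 1.67 and 1.61 CPM (4.43), the ubiquitin protease gene Usp26 at 25.0, 15.4, 0.507 and 0.942 (4.75) and the homeobox gene Rhox13 at 14.7, 13.8, 0.388 and 0.803 (4.59). Taf7l, a germ cell TFIID subunit (2.17), and Nxf2, an RNA export factor (3.66), rose as well. Over all 542 tested genes of the X the median log2 change was 0.02, with 20.3% higher and 16.8% lower. Xlr, Rhox and Magea genes are multicopy families, so single members are uncertain.

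A 6-base sequence was more frequent in some of these promoters. CACGTG, the palindromic E-box that MAX and its partners bind, was in 8 of 18 promoters of the RNA and piRNA list (44.4%), 6 of 20 of the meiosis list (30%) and 10.2% of all 11486 tested genes with a RefSeq promoter. In the X-linked list it was in 2 of 17 (11.8%). Among the 10 members of the RNA and piRNA list that were called higher and have a promoter, 6 held it, against 2 of 8 in the meiosis list and 2 of 12 in the X-linked list. It was not limited to germ cell genes: 3 of the 8 JNK, p38 and AP-1 genes called higher held it too. The stretches around the matches of 5 genes of the RNA and piRNA list are shown, with Nxf2, the X-linked gene with the most matches, and capitals mark CACGTG.

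Ddx4: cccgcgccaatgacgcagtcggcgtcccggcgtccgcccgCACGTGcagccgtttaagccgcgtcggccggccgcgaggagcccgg
Mael: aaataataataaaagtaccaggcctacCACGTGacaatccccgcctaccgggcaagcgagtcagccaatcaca
Tdrd1: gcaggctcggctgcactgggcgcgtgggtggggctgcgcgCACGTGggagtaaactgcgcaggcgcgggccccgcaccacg
Mov10l1: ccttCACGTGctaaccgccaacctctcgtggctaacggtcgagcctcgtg
Slc25a31: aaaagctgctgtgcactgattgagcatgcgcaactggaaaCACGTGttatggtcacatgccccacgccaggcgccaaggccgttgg
Nxf2: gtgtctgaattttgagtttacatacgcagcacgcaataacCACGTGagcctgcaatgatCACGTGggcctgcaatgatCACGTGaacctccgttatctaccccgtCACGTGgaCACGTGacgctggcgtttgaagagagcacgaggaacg

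They lie at chr13:112652294-112652379, chr1:166238922-166238994, chr19:56826158-56826238, chr15:88982744-88982793, chr3:40708738-40708823 and chrX:134964725-134964874 of RefSeq's GRCm38.p6, those of Ddx4, Mael and Nxf2 on the minus strand and the others on the plus strand. The single matches begin 29, 223, 11, 246 and 93 bases before the start in the same order, and the 5 of Nxf2 lie within 80 bases of it. TTCCCGC, an E2F motif, was in 7 of 20 meiosis promoters (35%), 4 of 18 of the RNA and piRNA list (22.2%) and 8.68% of all. Sycp1 and Hormad1 of the meiosis list hold CACGTG as well. With only the 250 bases before the start, the E-box shares were 38.9% of the RNA and piRNA list, 30% of the meiosis list and 8.49% of all. Of the repressor complex that joins MAX and E2F6 on germ cell promoters, Mga (-0.32), Max (0.15), E2f6 (0.31), Pcgf6 (0.09) and L3mbtl2 (-0.19) were not called, while Ring1 (0.94), Rnf2 (0.31) and Ehmt1 (0.40), subunits that it shares with other complexes, rose. Rnf2 was not called with RLE size factors, without the filter on low counts, without the treatment block or by DESeq2. Ehmt1 was at 0.33 without untreated EPSC and 0.29 without treated ESC, and was then not called. Without treated EPSC, or without treated ESC, Hormad1 was not called.

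Of the 26 genes of DNA methylation and germline repression, 7 were higher and 3 lower. Dnmt3a, a de novo methyltransferase, stood at 195, 180, 88.5 and 82.7 CPM (1.14, SE 0.102), and its cofactor Dnmt3l was at 0.35. Tet2, which oxidises methylcytosine, fell from 399 and 377 CPM in ESC to 200 and 175 (-1.05), whereas Tet1 was at 0.37. Dnmt3l, Tet1 (0.22 without untreated EPSC), Uhrf1 (-0.35) and Setdb1 (-0.38) were called, but each lost its call in 2 or more of the 4 fits with a library left out. Dnmt1 (0.18) and Dnmt3b (-0.12) were not called. The count of higher members was 2 without treated ESC and 3 without untreated ESC. CpG-rich promoters were less frequent among the genes that differed most: 69.8% of all tested genes had a CpG observed over expected ratio above 0.6, against 47.2% of genes at least 2-fold higher in both pairs and 44.7% of those lower.

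Retinoic acid genes divided by role, with 7 of 18 higher and 7 lower. Receptors and the readouts of the ligand rose: Rarg, a receptor, stood at 152, 183, 86.1 and 78.1 CPM (1.03), Rara rose by 0.79 and Rarb by 1.29 (chromosome 14), and Crabp2, which carries the ligand to the receptor, stood at 7.05, 8.16, 2.56 and 2.19 (1.68). Dhrs3 (1.57) and Cyp26a1 (2.28), which limit the ligand, and Stra8 rose as well. Cyp26a1 was not called by DESeq2, without untreated EPSC (1.52), without untreated ESC (2.83) or without treated ESC (1.93), Rarb was at 0.61 without untreated EPSC and not called there or without treated ESC, and Rara was at 0.44 and not called without untreated ESC. Genes of ligand synthesis fell: the enzyme gene Aldh1a2 stood at 0.436, 0.728, 2.53 and 2.05 CPM (-1.98), and Aldh1a3 fell by 4.17. Rxra, the partner receptor, fell from 35.9 and 31.2 CPM in ESC to 15.2 and 12.6 (-1.27). Cyp26b1, on chromosome 6, fell by 2.54, but was called in no fit with a library left out. Aldh1a3 was below 1 CPM in every library, and its fitted change was -7.71 without treated EPSC. The count of lower members was 4 without treated EPSC and 4 without treated ESC, and the list's median was -0.27 in the untreated and 0.27 in the treated pair.

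Some genes of the kinases that the EPSC medium inhibits changed and others did not. Of 28 JNK, p38 and AP-1 genes 8 were higher and 3 lower. Among the p38 genes Mapk11 stood at 6.20, 8.45, 2.24 and 2.60 CPM (1.59), Mapk12 rose by 1.40 and Mapk14 by 0.34, and Mapk13 fell by 0.91, though Mapk14 was called in no fit with a library left out and Mapk13 was not called without untreated EPSC (-0.64) or treated ESC (-0.57). Mapk10, the JNK gene of neurons, had 61, 38, 0 and 4 counts, at least 17.5-fold higher without T09, whereas Mapk8 (0.05) and Mapk9 (0.08), the ubiquitous JNK genes, were not called. Dusp10, a phosphatase of JNK and p38, fell from 4.95 and 5.73 CPM to 1.28 and 1.02 (-2.21). The stress genes Gadd45a (1.22, chromosome 6) and Gadd45b (0.72) rose. In the Src family, Yes1 stood at 47.6, 65.2, 172 and 170 CPM (-1.61) and Src fell by 0.74, while Fyn (-0.08) and Lyn (-0.49) were not called. The integrin genes Itga5 (0.73), Itgb1 (0.48), Itga6 (0.50) and Itgb5 (0.57) rose and Itgav fell (-0.65; -0.38 and not called without treated EPSC), giving 6 higher and 3 lower of 21 Src and focal adhesion genes. Without untreated EPSC or untreated ESC Itga6, and without treated ESC Itgb5, was not called. By DESeq2 5 of the JNK, p38 and AP-1 genes were higher.

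Smooth muscle and actin genes moved both ways, with 7 of 21 higher and 5 lower. Acta2, the smooth muscle actin, stood at 18.9, 6.24, 0.507 and 0.138 CPM (5.30, SE 0.291), and Tagln, its partner in contractile cells, at 5.46, 1.92, 0.596 and 0.748 (2.28). At both genes the treated EPSC library was well below the untreated one and above both ESC libraries. The cytoplasmic actin Actg1 fell from 1598 and 1260 CPM in ESC to 751 and 765 (-0.90), and Fhl1, a LIM domain gene, fell by 2.03. Actb (-0.03) and Srf (0.32) were not called. Without untreated EPSC 3 members were higher, and without treated ESC 4. Without untreated EPSC Tagln (1.51) and Amot (1.23) were not called. The SRF motif named the CArG box was in 7 of the list's 19 promoters (36.8%) and in 1.26% of all. The list was chosen to hold SRF and actin genes, so this share does not bear on the change in EPSC. Among 16 Hippo and YAP genes 3 were higher and 6 lower, with Amot, an inhibitor of YAP, at 4.79, 2.19, 0.805 and 1.05 CPM (1.81) and Tead4, the trophectoderm TEAD factor on chromosome 6, at 29.9, 26.4, 60.2 and 81.0 (-1.31). Without untreated ESC 2 of these were lower, and without treated EPSC 3.

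Adhesion genes changed in both directions as well, 6 of 18 higher and 6 lower. Grhl2, a transcription factor of epithelia, stood at 14.2, 13.1, 1.73 and 1.05 CPM (3.32), and Zeb2, a repressor of epithelial genes, at 4.77, 4.64, 0.596 and 0.526 (3.06). The tight junction genes Cldn3 (0.794, 0.316, 7.07 and 8.39 CPM, -3.84) and Ocln (2.56, 2.65, 17.4 and 16.5 CPM, -2.70) fell. Cdh1, which encodes E-cadherin, fell by 0.77 and Cdh2 by 1.85, while Epcam (0.87), Dsp (1.23; 0.72 without untreated EPSC) and Vim (0.89) rose. Dsp was not called by DESeq2. Cdh3 (0.65) was called in no fit with a library left out.

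In one-carbon metabolism, which supplies methyl groups, 13 of 26 genes were lower and 1 higher. The 3 neighbouring genes of betaine use fell furthest: Bhmt, which passes a methyl group from betaine to homocysteine, had 249, 89, 3618 and 2345 counts (-4.45, SE 0.208). Bhmt2 had 17, 20, 756 and 794 (-5.58), and Dmgdh, which breaks down the product, had 52, 40, 2541 and 1969 (-5.81). The glycine methyltransferase Gnmt (-2.18), Cbs (-1.52) and Cth (-0.95), which pass homocysteine to cysteine, and Ahcy (-0.77), which splits S-adenosylhomocysteine, fell too. Tdh (-0.84, or -0.50 without untreated EPSC; chromosome 14) and Gcat (-0.95), which turn threonine into glycine in mouse ESC, fell, whereas Gldc, the glycine decarboxylase, stood at 166, 223, 91.4 and 103 CPM and rose (0.99). The folate enzymes Mthfd1 (-0.05) and Tyms (0.12) and the synthases Mat2a (-0.30) and Mtr (-0.12) were not called.

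Of 20 tested genes of glycolysis and the hypoxia response 12 were lower and 1 higher, with a median log2 change of -0.80. The median ratio was -0.45 in the untreated and -1.42 in the treated pair. The lower members include the hypoxia genes Bnip3, P4ha1 and Ero1l (chromosome 14), and DESeq2 did not call Bnip3 or P4ha1. Ldha, which makes lactate, stood at 454, 356, 1335 and 1788 CPM (-1.94), Pgk1 at 346, 323, 645 and 969 (-1.24) and Pfkp at 179, 150, 318 and 502 (-1.28). In each the gap was wider in the treated pair, since treated ESC held the highest level. Tpi1 (-2.09), Hk2 (-1.18) and the transporter gene Slc2a3 (-1.08) fell as well but lie on chromosome 6, and without chromosomes 6, 14 and Y the count was 8 of 16. Pdk1, which shuts pyruvate out of mitochondria, rose (1.12, or 0.66 without untreated ESC). Slc2a3 was not called by DESeq2. Of 22 respiratory chain genes 6 were higher, among them Cox4i1 (0.51), and 1 was lower. There were 3 higher by DESeq2, without the treatment block or without treated ESC, 2 without treated EPSC and 1 without untreated ESC. Of 21 ATF4 and serine synthesis genes 6 were lower and 0 higher, with Asns, the asparagine synthetase gene on chromosome 6, at 208, 225, 974 and 1021 CPM (-2.20), Atf4 at -1.10 and Psat1 at -0.91.

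Pluripotency genes changed both ways, with 4 of 25 higher and 10 lower and log2 changes from -1.74 to 1.88. Pou5f1 stood at 1175, 1321, 1329 and 1377 CPM and Sox2 at 395, 441, 389 and 395, and neither was called (log2 changes of -0.12 and 0.09). Nanog stood at 627, 612, 1442 and 1211 CPM (-1.09), which is larger than the chromosome 6 median of -0.39 that surrounds it. Tfcp2l1, a target of LIF and Wnt, stood at 436, 338, 1305 and 1272 CPM (-1.74), and Klf4 (-0.83), Klf2 (-0.72) and Esrrb (-0.50) fell, while Utf1, Lin28a (0.73), Dppa4 (0.62; 0.39 without treated EPSC) and Sall4 (0.39) rose. Dppa4 was not called without untreated ESC, nor Sall4 without either treated library. Of 18 LIF and STAT3 genes 7 were lower and 0 higher, with Stat3 at -0.55, Pim1 at -0.87 and the receptor genes Lifr (0.28) and Il6st (0.04) not called. Among 16 formative genes 6 were higher and 1 lower: Otx2 stood at 20.7, 28.9, 3.34 and 5.35 CPM (2.53, chromosome 14), Sox4 at 73.9, 59.0, 19.4 and 10.6 (2.20), and Zic2 (0.89) also lies on chromosome 14. Without chromosomes 6, 14 and Y the count was 3 higher.

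Of 22 FGF and ERK genes 9 were higher and 3 lower, and both media held the same MEK inhibitor at the same dose. Egr1, an immediate early gene of this list, had opposite signs in the pairs, at 70.7, 2.99, 0.358 and 89.2 CPM, and was not called. Dusp6, the ERK phosphatase that ERK itself induces, stood at 31.7, 41.2, 6.83 and 5.62 CPM (2.54, SE 0.186). Dusp4 (2.47), Dusp5 (2.12) and Spry4 (32.0, 58.9, 9.75 and 13.7 CPM, 1.92), further feedback inhibitors, rose, and so did the receptors Fgfr2 (1.92) and Fgfr3 (2.64). Etv5 fell (-0.43), as did Ier3 and Spry2, a relative of Spry4 on chromosome 14. Spry2 was at -0.51 and not called without the treatment block, and Ier3 was at -1.14 and not called by DESeq2. Etv4 (-0.17), Fgf4 (-0.06) and Fgfr1 (-0.24) were not called. In the Nodal and BMP list, with 6 of 20 higher and 5 lower, the paired inhibitors parted: Lefty1 stood at 132, 69.8, 17.5 and 22.3 CPM (2.28) and Lefty2 at 107, 62.3, 173 and 260 (-1.37), 2 similar genes between which reads could be split. Smad7, the feedback inhibitor of both pathways, fell (-1.17), and the BMP targets Id1 (0.67) and Id2 (1.16) rose while Id3 fell (-1.52). Id1 was at 0.07 without treated EPSC and 0.45 without untreated ESC and was then not called, nor was it without the treatment block or by DESeq2, and it was at 1.18 and 1.07 without untreated EPSC or treated ESC. Id2 was not called by DESeq2 or without untreated EPSC, Etv5 without untreated EPSC or untreated ESC, and Lefty2 by DESeq2. Notch and Hedgehog genes had 3 of 21 higher and 5 lower, with the ligands Dll1 (62 and 0 counts with T09, at least 18.1-fold higher) up, Jag1 (-1.54) and Jag2 (-0.99) down, and Gli1, a Hedgehog readout, up by 1.40. Of the Nodal and BMP list 2 were higher and 3 lower by DESeq2, and 3 and 2 were higher without untreated EPSC or untreated ESC, while 8 of the Notch and Hedgehog list were lower without untreated EPSC.

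**Figure D5:**
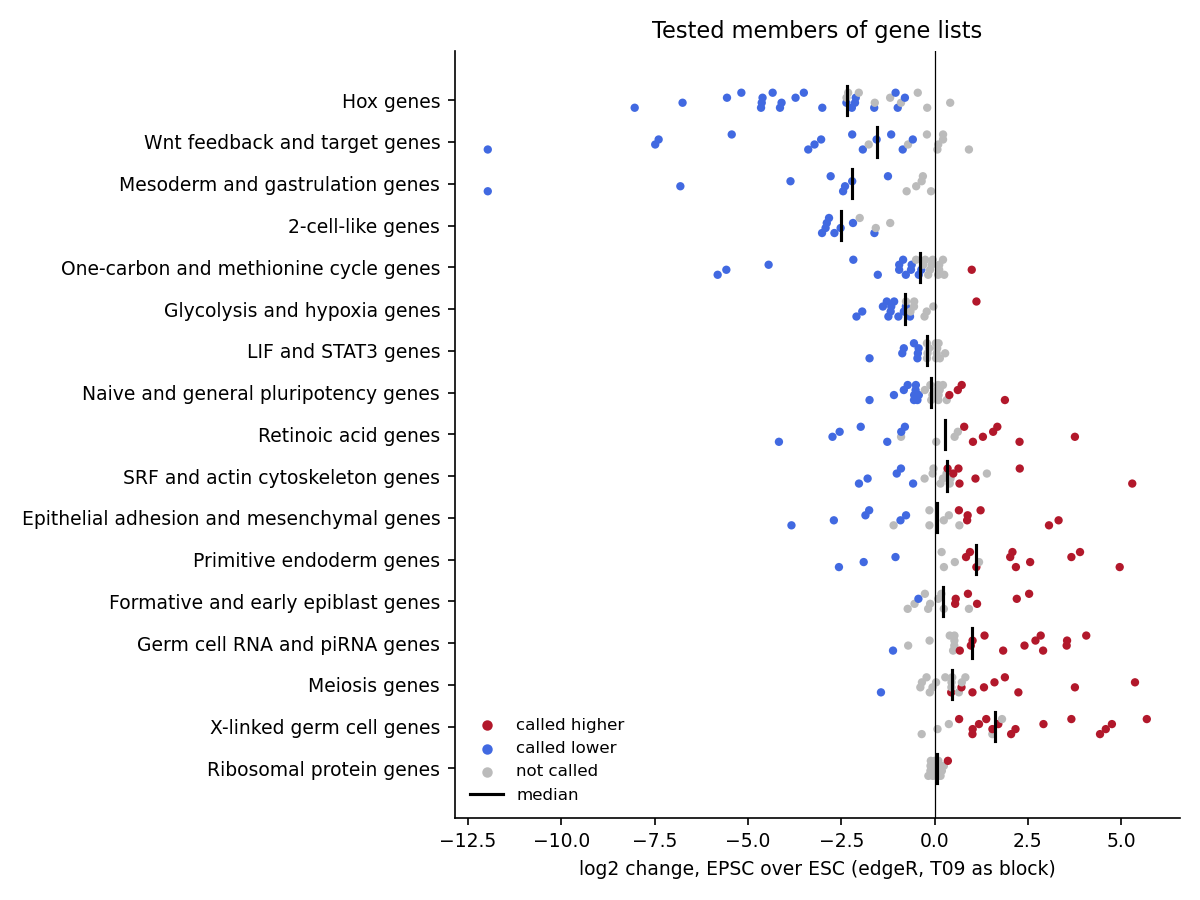
Log2 change of EPSC over ESC (edgeR with T09 as a block) for the tested members of 16 gene lists and the Hox family, red where called higher, blue where called lower, grey where not called, with the median as a black bar. Nkx1-2, at the far left of both the Wnt and the mesoderm list, had 0 counts in EPSC, so its fitted change is no bound. Wnt target, mesoderm, 2-cell-like and Hox genes hold no member called higher, and ribosomal protein genes, with a median of 0.07, sit at 0.

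Among lineage genes, those of the primitive endoderm rose, 10 of 17 higher and 3 lower. Gata6, a master regulator of that lineage, stood at 8.33, 5.41, 0.596 and 0.332 CPM (3.90), Sox7 at 3.28, 2.26, 0.119 and 0.0554, and Pdgfra, the receptor that marks it, at 4.64, 2.28, 1.10 and 0.582 (2.03). Gata4 (0.19) and Sox17 (0.54), which follow Gata6 in the lineage, were not called, and Hnf4a fell (-1.05). Basement membrane genes had 6 of 21 higher and 8 lower, with Lamb1 up (1.23) and the laminin gene Lama5 (-0.83) and also Nid1 (-1.01) down, and 5 were lower without treated ESC. Of 16 trophectoderm genes 6 were higher and 8 lower, or 4 and 6 of 12 without chromosomes 6, 14 and Y. Cdx2, the master regulator of that lineage, fell furthest, with 2, 1, 72 and 50 counts (-5.44), and Eomes, which acts beside it, had 141, 153, 615 and 795 counts (-2.45). Gata2 (-2.75, chromosome 6), Tfap2a (-2.09), Krt8 (-1.52) and Krt18 (-1.12) fell and Gata3 (1.47) and Tfap2c (0.55) rose. Gata3 was at 0.73 without untreated EPSC and 0.45 without treated ESC, Tfap2c at 0.32 without treated EPSC, and neither was then called. Without treated EPSC Krt18 and Hnf4a (-0.72) and without untreated EPSC Pdgfra (1.44) lost their calls too. Mesoderm genes had 8 of 13 lower and 0 higher, with Kdr, the receptor of early mesoderm, at 0.384, 0.194, 4.00 and 4.38 CPM (-3.86) and Wnt3a at 0.692, 0.534, 3.88 and 4.63 (-2.79), and 5 were lower by DESeq2.

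Neural genes divided into 5 of 11 higher and 4 lower. Pax6, an eye and brain regulator, stood at 6.84, 11.9, 0.686 and 0.222 CPM (4.35) and Sox1, the earliest neural marker, at 32.1, 31.3, 14.1 and 16.8 (1.04). The neurofilament genes Nefm (0.871, 0.413, 48.9 and 32.6 CPM) and Nefl (3.69, 4.49, 64.5 and 42.3 CPM) fell although they lie on chromosome 14, and without chromosomes 6, 14 and Y the count was 2 lower. The 2-cell-like genes, named for a fleeting embryo-like state of cultured stem cells, had 8 of 11 lower and 0 higher. Pramef12 of that list was the member with the most counts, at 36.1, 27.5, 94.2 and 99.5 CPM (-1.61).

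Other lists ranged from well below the background to above it. Ribosomal protein genes had 1 of 20 higher and 0 lower, cholesterol synthesis and uptake genes 3 of 24 higher and 1 lower, imprinted genes 0 of 24 higher and 3 lower, and oxidative and metal stress genes 2 of 18 higher and 4 lower, of which 2 were lower without either EPSC library and 1 without either ESC library. The cholesterol count was 0 higher and 3 lower without untreated ESC and 6 higher without treated ESC, and the imprinted count was 2 higher and 5 lower without untreated EPSC. Cell cycle genes had 0 of 26 higher and 7 lower, led by Cdk6 (10.7, 11.8, 47.2 and 47.2 CPM, -2.07), and 3 were lower with library totals or without untreated EPSC, 4 without treated EPSC and 2 without untreated ESC. Mki67 (-0.06), Ccnb1 (-0.14) and Top2a (0.23) were not called. Of 19 p53 targets 2 were higher and 6 lower, with the cell cycle inhibitor Cdkn1a at 48.2, 43.1, 184 and 204 CPM (-2.08) and Trp53 itself (0.29) not called. Antigen presentation and interferon genes had 3 of 15 higher and 3 lower, with Bst2, an interferon-induced antiviral gene, down (-1.45), and 1 was lower without untreated EPSC or treated ESC. Fibroblast markers had 0 of 7 higher and 3 lower, of which 1 was lower without treated EPSC or untreated ESC and 2 without treated ESC. Of 15 LXR targets 7 were lower and 2 higher, but none was called lower without the treatment block, without untreated EPSC or without treated ESC, and 3 were without untreated ESC.

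In the blastoid libraries, which the test did not use, the genes furthest apart followed several courses, given here in CPM scaled over all 8 libraries and in the order Type III, Type I, siNr1h2 and siNT. Enpp3 stayed high at 32.0, 19.3, 37.5 and 47.2. Sox7 was higher than in EPSC, at 64.7, 73.8, 41.6 and 47.0. Acta2 was below both EPSC libraries, at 0.882, 0.139, 1.94 and 2.13, and Scml2 lay in between at 6.81, 6.85, 20.4 and 19.1. Of genes low in EPSC, Nkx1-2 was at 3.77, 3.79, 19.8 and 13.1 and Sp5 at 10.0, 17.3, 5.53 and 4.67, and Nefm was at 15.1, 19.7, 44.4 and 44.3. Bhmt2 stayed lower than in ESC, at 3.89, 3.87, 3.13 and 2.77, and so did Tmem173, at 0.943, 0.669, 1.14 and 0.381. Hox genes summed to 77.4, 77.1, 45.9 and 45.5. Each value is 1 library, in other media, with no replicate.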

How the data were processed

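RNA sequencing counts of 4 of the series' 8 mouse libraries were compared, 1 per condition. The deposited table holds whole-number counts of reads per gene symbol that the authors made and did not normalise. Per the labels' protocols, RNA was cleaned of DNA and the library kit kept strand information; the submitters' processing notes name STAR, HTSeq, Cuffnorm and mm9 without roles, and the strand setting is not given in the sources used here. No molecular identifiers are named, so the intervals and the floor reflect counting error alone. Library depth was 33923249 to 40781415 counts.

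The gene lists, the comparison and the alternatives were chosen with earlier results of these data known. After TMM scaling, genes that passed filterByExpr were tested with edgeR's quasi-likelihood test (edgeR 4.0.16, R 4.3.3) on state plus treatment, which leaves 1 residual degree of freedom, at a Benjamini-Hochberg adjusted p of 0.05. CPM is counts scaled to a common library size with TMM factors. Of 24888 gene symbols 6064 had no counts in the 4 libraries. Each pair's log2 ratio used a prior count of 2 with 95% exact Clopper-Pearson limits, and a gene passed in both pairs when each was at least 2-fold, each pair's limits left out a ratio of 1 and 1 library of each pair had at least 20 counts. A fold against 0 counts used a floor of 3 counts per library. Among called genes with at least 50 counts in both libraries of the higher state, the 12 furthest apart in each direction are named, with up to 8 called members of each list ranked the same way, further members given as values, and Pou5f1, Sox2 and Nanog always. Hox genes and runs of neighbours were chosen after their values were seen. On simulated data of 14233 genes the test recovered 98% of genes changed 2-fold and 100% changed 4-fold, with 11 false calls. Only 100 genes were changed per fold, all with a mean of at least 100 counts, so recovery at lower counts was not measured. The same-sign rule was not applied there, and the rule of 2-fold in both pairs gave 20 false calls. Alternatives used limma 3.58.1 and DESeq2 1.42.0. Promoters were RefSeq's, 250 bases before to 50 after the first listed start, found for 11486 genes. A few members of the lists are counted but not reported by name here.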

Additional observations from a re-analysis of the deposited data

Results flagged for a closer look

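A few results had opposite signs in the untreated and the T09-treated pair, so the difference between EPSC and ESC went one way without T09 and the other way with it. These differences were not tested, since each pair is 1 library against 1. Egr1, an immediate early gene, had a log2 ratio of 7.42 in the untreated pair and -4.88 in the treated pair, Fos 5.57 and -4.12, and Fosb 4.21 and -2.46. Tdg, a DNA glycosylase gene with near-identical copies, had 1.15 and -1.14. Of 14477 tested genes 16 were at least 2-fold apart in both pairs with opposite signs, and none of the 16 was called.

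By list, retinoic acid genes had a median log2 ratio of -0.27 in the untreated pair and 0.27 in the treated pair, and basement membrane genes 0.16 and -0.44.

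In the blastoid libraries, which the comparison does not use, genes of the X chromosome had median log2 levels above both ESC libraries: 0.36 in Type III, 0.31 in Type I, 0.18 in siNr1h2 and 0.18 in siNT.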

How the results depend on the processing

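The test pairs EPSC with ESC by treatment, since the labels give no replicate numbers. Without that treatment block 3862 genes were called. RLE size factors gave 4164, library totals 4336 (2380 higher and 1956 lower), no filter on low counts 4293, limma-voom 4283 and DESeq2 3073, and no call in any of these or in the fits without a library was opposite in sign to the 4172. Leaving out 1 library at a time, with state alone, gave 2892 to 3314 calls, 1382 to 1503 higher and 1414 to 1811 lower. An adjusted p under 0.01 left 2336 (1120 and 1216), and at least 2-fold 1966 (964 and 1002). For genes 2-fold apart in both pairs, a minimum of 100 counts gave 971 (459 and 512), 1.5-fold 2715 (1334 and 1381) and 4-fold 519 (249 and 270). The untreated pair alone gave 2439, 1305 of them higher, and the treated pair alone 2483, 1362 of them lower. The chromosome 6 median was -0.35 with library totals, which moved the median of all genes by 0.04, and the Y median was 0.92 at a mean of at least 10 CPM.

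For the LXR targets Abcg1, Abca1, Mylip and Scd2 the log2 changes were 0.13, 0.10, 0.11 and 0.19 without untreated EPSC and -4.89, -3.43, -3.30 and -1.38 without treated EPSC. Without treated ESC they were 2.20, 1.16, 0.74 and 0.54. Rnf145 was at -1.04 without treated EPSC and 0.0204 without treated ESC. These fits hold no treatment term, so treatment is then unequal between the states. With 2 libraries a side and low counts for many Hox and germ cell genes, precision is limited there. The Hox count lay between 17 and 22 in all fits.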
